A study of Mus musculus with 80 samples.

Results

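The genes described here were those whose parity difference, primiparous minus virgin, was unlike in the hypothalamus and the cerebellum. They were chosen by the interaction of brain region and reproductive state in a count model with the animal as a block. Of 13016 genes tested, 1502 (11.5%) passed an adjusted p of 0.05 in that model, 546 (4.19%) with a positive and 956 (7.34%) with a negative interaction. A positive interaction means that the primiparous minus virgin difference was higher in the hypothalamus than in the cerebellum, and a negative one that it was lower there. After a correction of each library for transcript length and GC content, 501 of 12632 genes (3.97%) passed, 217 (1.72%) positive and 284 (2.25%) negative. The description below rests on the 323 genes (2.56%) that passed both models in the same direction, 128 (1.01%) positive and 195 (1.54%) negative. These calls depend on few animals: the corrected count ran from 93 (without virgin 4486) to 920 (without primiparous 4493) with single animals left out. With a term for the series of animal numbers, described below, 0 corrected edgeR calls remained (1157 genes at an unadjusted p under 0.05). The balance of directions also varied: 43.3% of the corrected calls were positive here, and 52.7% with DESeq2 in place of edgeR.

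The samples came from female mice labelled C57BL/6, which the study's methods give as the substrain C57BL/6J. Virgin females had never been mated and were housed together. Primiparous females were mated at 8 weeks of age, raised 1 litter and, per the sample labels, gave tissue 3 weeks after the pups were weaned; the study's methods give a longer interval. All were of similar age and shared a room, and the labels name no transgene and no agent. The hypothalamus was taken whole and the cerebellum from the left side only. The hypothalamus gave 8 virgin and 8 primiparous libraries and the cerebellum 7 virgin and 8 primiparous libraries, 31 of the 77 in the count table. The 15 animals with both regions (7 virgin, 8 primiparous) carried the interaction, since virgin 4490 had no cerebellar library here. The libraries of each region were sequenced as a pool, so a difference between regions holds both tissue and sequencing run, while the difference between states is read inside each pool. In these bulk samples, fewer cells of a type and less RNA per cell cannot be told apart.

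Pregnancy and lactation expose the hypothalamus to prolactin, oestrogen, progesterone and oxytocin, and its neurons carry receptors for these hormones and start maternal behaviour, milk ejection and the return of the ovarian cycle. The cerebellum, built mostly of granule cells, Purkinje cells and Bergmann glia, coordinates movement and is seldom studied for parity. The interaction asks whether having raised a litter was followed by the same lasting difference in both tissues of an animal, or by unlike ones.

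Total counted reads ran from 7959192 to 23352639 per hypothalamic library and from 8702483 to 29090360 per cerebellar library. The fixed hypothalamic marker genes summed to between 1023 and 1731 CPM (reads of a gene relative to the library's total, scaled to a common depth) in the hypothalamus and to at most 29.9 in the cerebellum. The granule cell markers summed to between 4612 and 6075 CPM in the cerebellum and to at most 287 in the hypothalamus, so each tissue carried its own markers. Animal numbers fall into 2 series that overlap only partly with state. Of the animals with both libraries, 2 virgins (405 and 409) and 7 primiparous females have 3-digit numbers, and 5 virgins and 1 primiparous female (4493) have 4-digit numbers. The labels do not say what the series mean.

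The 323 genes mostly moved in opposite directions in the 2 tissues. Among the 128 positive genes the corrected hypothalamic difference had a median of 0.16 (log2) and the cerebellar one a median of -0.20, with unlike signs in 126. Among the 195 negative genes the medians were -0.15 in the hypothalamus and 0.20 in the cerebellum, with unlike signs in 188. Over all 12632 genes the medians were 0.01 and 0.00348. These values come from the contrast that chose the genes and are given as a description. Taken region by region with the same correction, 360 genes (2.85%) differed with parity in the hypothalamus and 413 (3.27%) in the cerebellum; uncorrected, 2939 (22.6%) and 92 (0.707%) did. Of the 195 negative genes, 59 passed in the hypothalamus, 74 in the cerebellum and 9 in both, and 71 passed in neither region alone. Of the 128 positive genes, 25 passed in the hypothalamus, 24 in the cerebellum and 1 in both, and 80 passed in neither. The cerebellar difference was the larger in size in 117 negative and 79 positive genes.

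**Figure D1:**
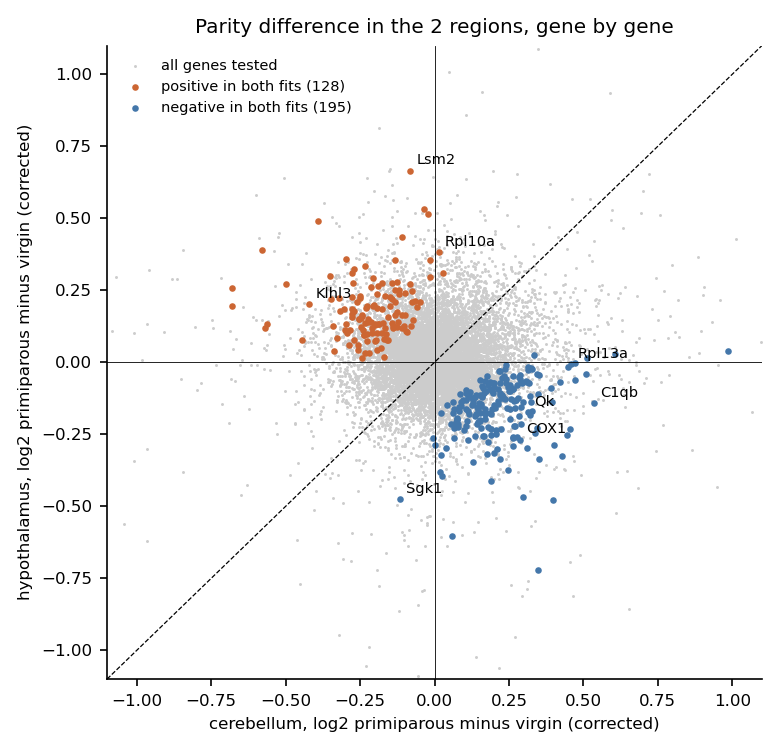
Corrected log2 difference between primiparous and virgin mice in the cerebellum (horizontal axis) and the hypothalamus (vertical axis) for each gene, on axes cut at the range shown. The dashed line marks equal differences; the 128 positive genes lie to its upper left and the 195 negative genes to its lower right, most of them in the quadrants of unlike sign.

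The other 3 regions of the same mice gave small differences for these genes. The corrected differences of the positive genes had medians of -0.03 in the hippocampus, 0.05 in the neocortex and -0.06 in the amygdala. Those of the negative genes had medians of 0.01, -0.05 and 0.06. In the neocortex 96 of 128 positive genes were above 0 and 152 of 195 negative genes below it. In the amygdala 86 of the positive genes were below 0 and 132 of the negative genes above it, and in the hippocampus 84 and 119. Over all 12632 genes, 6419 were above 0 in the neocortex, 6227 in the amygdala and 6158 in the hippocampus. Over all genes tested the 3 medians were -0.00242, 0.00184 and -0.00193.

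Transcript composition moved with the uncorrected result. Genes in the lowest quintile of GC content (31.0% to 44.0%) had a median uncorrected interaction of -0.24, and those in the highest quintile (55.8% to 71.3%) of 0.15. In the lowest quintile 602 genes passed as negative and 5 as positive, while in the highest quintile 10 passed as negative and 249 as positive. The slope of the hypothalamus to cerebellum ratio on GC content, per 10 percentage points over 10930 genes, ran from -0.29 through a median of -0.18 to 0.06 in virgins. In primiparous females it ran from -0.19 through 0.13 to 0.34. The states overlapped, mainly through primiparous 418 at -0.19 and virgins 409 and 4488 at 0.06 and 0.03. The means were -0.13 ± 0.14 (SD, n = 7) and 0.11 ± 0.17 (SD, n = 8), a difference of 0.245 (two-sided exact permutation test over 6435 assignments, p = 0.011, adjusted over 2 slopes 0.022). This test took no account of the number series. Within the 3-digit animals the mean slopes were 0.00246 in 2 virgins and 0.127 in 7 primiparous females, a difference of 0.124. Within the 4-digit animals they were -0.184 in 5 virgins and 0.0272 in primiparous 4493, a difference of 0.211. The slope on transcript length differed by 0.0554 per doubling (same exact test, p = 0.03, adjusted 0.03), but lost its call in 6 of 15 cases with a single animal left out (virgins 409, 4486 and 4487 and primiparous 413, 414 and 425, exact permutation p up to 0.0673). Its differences within the series were 0.0489 and -0.00363. After the correction the quintiles of GC content had medians between -0.01 and 0.01. In that fit 68 negative and 60 positive genes passed in the lowest quintile, and 44 and 52 in the highest. The correction ended the call of 1156 genes and brought in 178 others, and no gene passed both with unlike signs.

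**Figure D2:**
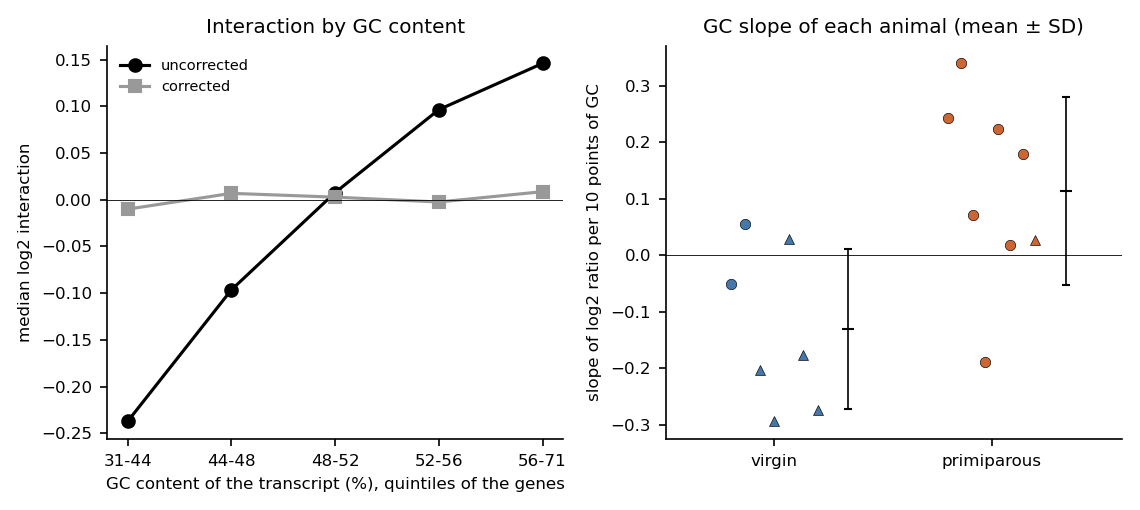
Left, median log2 interaction in quintiles of the genes by GC content of the transcript, before (circles) and after (squares) the correction. Right, slope of each animal's log2 ratio of hypothalamus to cerebellum on GC content, with mean ± SD; circles are 3-digit and triangles 4-digit animal numbers, and the uncorrected medians climb from -0.24 to 0.15 while the corrected ones stay near 0.

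The coding starts of 3 of the 323 genes are given as examples of unlike composition. The first 120 coding bases of ND3 (mitochondrial, chrM:9459-9806, plus strand, negative), Gabra2 (chr5:70957597-71095849, minus strand, negative) and Plxnb2 (chr15:89155549-89180788, minus strand, positive) are given from the GENCODE M21 transcripts of mouse build GRCm38, with G and C in capitals. G and C make up 33.3%, 45.0% and 60.8% of these stretches. The correction used the whole transcript, where they make up 33.0%, 38.4% and 57.3%.
ND3: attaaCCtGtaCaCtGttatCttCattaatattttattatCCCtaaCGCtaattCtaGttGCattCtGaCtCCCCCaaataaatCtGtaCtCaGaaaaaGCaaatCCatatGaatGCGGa
Gabra2: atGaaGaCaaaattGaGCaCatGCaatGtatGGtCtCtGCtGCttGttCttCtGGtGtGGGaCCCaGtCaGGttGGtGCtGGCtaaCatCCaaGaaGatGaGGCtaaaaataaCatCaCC
Plxnb2: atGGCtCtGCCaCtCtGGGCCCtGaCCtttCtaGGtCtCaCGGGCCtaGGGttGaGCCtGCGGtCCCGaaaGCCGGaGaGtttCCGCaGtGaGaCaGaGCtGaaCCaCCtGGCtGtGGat

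Even after the correction, the negative genes that passed both models had a median GC content of 46.3% and the positive ones of 53.6%, against 49.9% over all genes. That follows in part from requiring the uncorrected call as well: the 284 negative and 217 positive genes of the corrected model had medians of 49.3% and 48.7%. At the threshold of the corrected model, the last gene inside was Arl2bp with an interaction of -0.21 ± 0.06 (SE, adjusted p = 0.0498). The first outside was Ppfia2 with 0.21 ± 0.06 (adjusted p = 0.0502).

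All 13 mitochondrially encoded mRNAs had negative interactions over the 15 animals. These 13 genes encode subunits of the respiratory chain and ATP synthase and are transcribed together from the circular mitochondrial genome. The group was singled out after its values were seen, so it is given as a description. All 13 passed the uncorrected model (background 7.34% negative) and 9 of 13 passed the corrected one (background 2.25% negative). The median interaction was -1.01 uncorrected and -0.56 corrected, beside -0.0116 and 0.000867 over all genes. In every one the corrected difference was below 0 in the hypothalamus (median -0.22) and above 0 in the cerebellum (median 0.30). The sign did not hold in each number series. Within the 4-digit animals ATP6, ATP8, COX2 and COX3 had differences of 0.28, 0.05, 0.30 and 0.34, and within the 3-digit animals ND6 had 0.07. As a share of all counted reads, the 13 mRNAs took 3.86% to 4.79% of virgin hypothalamic libraries (median 4.56%). They took 2.92% to 3.76% in primiparous hypothalami (median 3.28%). In the cerebellum the share was 2.49% to 3.66% in virgins (median 2.70%) and 3.08% to 4.44% in primiparous females (median 3.91%). The hypothalamic groups did not overlap, the cerebellar ones did.

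ND1 (chrM:2751-3707), a core subunit of complex I, had the smallest p of the corrected model. Its hypothalamic level was 5129 to 6440 CPM in virgins (median 5942) and 3681 to 5081 in primiparous females (median 4230). Its cerebellar level was 3217 to 4646 CPM (median 3472) and 4095 to 6084 (median 5244). The hypothalamus therefore fell while the cerebellum rose, without overlap in the hypothalamus. The corrected log2 ratio of the regions was 0.35 to 0.56 in the 7 virgins and -0.27 to 0.19 in the 8 primiparous females, also without overlap. The interaction was -0.48 ± 0.06 (SE, edgeR adjusted p = 0.000356).

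ND4 (chrM:10167-11544), another complex I subunit, had ratios of 0.44 to 0.76 in virgins and -0.08 to 0.31 in primiparous females. Its interaction was -0.49 ± 0.07 (edgeR adjusted p = 0.000356). ND3, with a GC content of 33.0%, fell from a hypothalamic median of 49.5 to 27.1 CPM and went from 26.7 to 46.1 in the cerebellum. Its uncorrected interaction of -1.30 became -0.68 ± 0.11 (edgeR adjusted p = 0.00161), so about as much was removed by the correction as was kept. COX1 (chrM:5328-6872), the catalytic subunit of cytochrome c oxidase, was the most abundant of the 13. It had hypothalamic medians of 15864 and 10999 CPM, cerebellar medians of 10394 and 15143 CPM, and an interaction of -0.56 ± 0.08 (edgeR adjusted p = 0.000586). ND2, ND5, CYTB, ATP6 and ND4L had corrected interactions of -0.50, -0.45, -0.41, -0.69 and -0.71. COX2, COX3, ATP8 and ND6 had -0.66, -0.62, -0.57 and -0.35 and did not pass (edgeR adjusted p 0.0516, 0.0736, 0.0982 and 0.232). With single animals left out, each could pass, at a lowest edgeR adjusted p of 0.00171, 0.00307, 0.0356 and 0.00579. ND6 lies on the other strand of the molecule. ATP8 and ATP6 overlap in part, as do ND4L and ND4, and how reads there were counted was not examined. Nuclear copies of mitochondrial sequence can remove reads that do not map once. In virgin 409 the share of these mRNAs in the hypothalamus was the lowest of its group (3.86%), and primiparous 4493 had the highest of its group (3.76%).

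**Figure D3:**
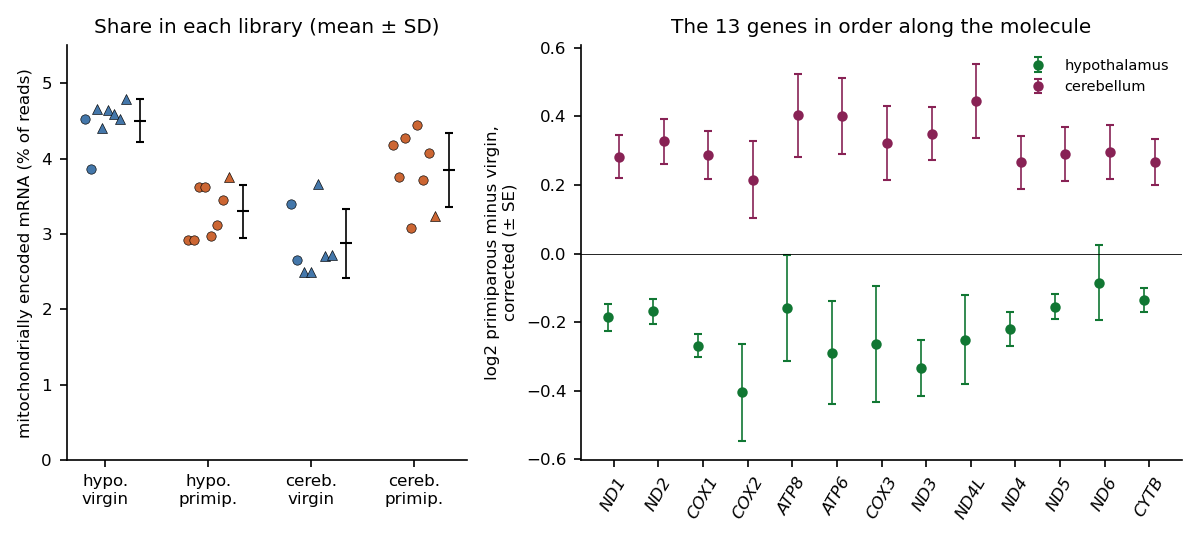
Left, percent of counted reads from the 13 mitochondrially encoded mRNAs in each library, with mean ± SD; circles are 3-digit and triangles 4-digit animal numbers. Right, corrected log2 difference primiparous minus virgin (± SE) of each gene, in order along the mitochondrial genome; all 13 lie below 0 in the hypothalamus and above 0 in the cerebellum.

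Of 80 nuclear genes of the respiratory chain and ATP synthase, 14 passed the uncorrected model as negative and 0 as positive (background 7.34% and 4.19%), with a median of -0.10. In the corrected model 4 passed as negative and 1 as positive (background 2.25% and 1.72%), with a median of -0.02 and 64 members above 0 in the cerebellum and 53 in the hypothalamus. The negative ones included Atp5c1 (now also called Atp5f1c), the gamma subunit of ATP synthase, Ndufa5 and Ndufb4, accessory subunits of complex I. Atp5c1 (chr2:10056016-10080510) had ratios of -0.28 to 0.03 in virgins and -0.58 to -0.30 in primiparous females, with no overlap. Its interaction was -0.32 ± 0.06 (edgeR adjusted p = 0.00782), with hypothalamic medians of 209 and 177 CPM and cerebellar ones of 218 and 244. Ndufa5 had -0.29 ± 0.07 and Ndufb4 -0.40 ± 0.10 (edgeR adjusted p 0.0259 and 0.0283). Mitochondrial ribosomal proteins gave 1 positive and 1 negative gene of 77, a share below the background of 3.97%. The negative one, Mrpl54, had -0.47 ± 0.13 (edgeR adjusted p = 0.0429).

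Of the nuclear genes that passed, Qk had the smallest p of those described here. Qk (chr17:10202601-10319854) encodes quaking, an RNA-binding protein that guides the splicing and transport of myelin mRNAs in oligodendrocytes and is also made in astrocytes. Its hypothalamic level was 366 to 530 CPM in virgins (median 504) and 320 to 447 in primiparous females (median 370). Its cerebellar level was 319 to 457 CPM (median 347) and 386 to 468 (median 452). The corrected ratio was 0.12 to 0.54 in virgins and -0.31 to 0.02 in primiparous females, without overlap, and the interaction was -0.48 ± 0.07 (edgeR adjusted p = 0.000455). Both regions passed alone, the hypothalamus at -0.17 and the cerebellum at 0.31 (edgeR adjusted p 0.0156 and 0.00833).

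Mbp, myelin basic protein (chr18:82475146-82585637), was the 1 oligodendrocyte marker of 8 that passed (background 2.25% negative, here and for the glial markers that follow). It did not differ in the hypothalamus beyond its error (0.00 ± 0.06, medians 2899 and 3075 CPM) and was higher in the primiparous cerebellum by 0.47 ± 0.10 (medians 3036 and 3998 CPM, edgeR adjusted p = 0.0202). Its interaction was -0.49 ± 0.12 (edgeR adjusted p = 0.03). Primiparous 4493, at a ratio of 0.14, sat among the virgins, while the other 7 primiparous females lay between -0.62 and -0.32. All 8 oligodendrocyte markers had a negative corrected interaction (median -0.19). The microglial complement genes C1qa and C1qb and the fractalkine receptor Cx3cr1 passed of 8 microglial markers, at -0.40, -0.64 and -0.37. With single animals left out, C1qa lost its call in 13 of 15 cases, Cx3cr1 in 9 and C1qb in 0. C1qb (chr4:136880129-136886187) had ratios of 1.05 to 1.26 in virgins and 0.21 to 0.73 in primiparous females. That gap came from the cerebellum, where its medians were 5.88 and 8.93 CPM, beside 13.2 and 12.8 in the hypothalamus. All 8 microglial markers were negative (median -0.36). Of 7 astrocyte markers, the glutamate transporter Slc1a2 (-0.28) and S100b (-0.31) passed and the median was -0.23. Of 5 oligodendrocyte precursor markers Olig1 (-0.27) passed, like C1qa only after correction. Of those 5, 4 were below 0, and the 1 called without correction was positive. With single animals left out Mbp lost its call in 6 of 15 cases, Slc1a2 and S100b in 7 each and Olig1 in 10. In the corrected edgeR model 0 of 3 Bergmann glia, 0 of 8 Purkinje cell and 0 of 8 granule cell markers passed, with 0, 2 and 1 at an unadjusted p under 0.05 and medians of 0.03, -0.08 and 0.24. Uncorrected, 2 Purkinje cell markers passed as negative (background 7.34%), and 0 Bergmann glia and 0 granule cell markers passed. The summed level of the microglial markers in the cerebellum was 96.1 to 114 CPM in virgins and 112 to 142 in primiparous females. That of the oligodendrocyte markers was 4675 to 6209 and 5606 to 7854 CPM, that of the oligodendrocyte precursor markers 147 to 157 and 160 to 189, and that of the granule cell markers 5459 to 5949 and 4612 to 6075. Only the precursor markers did not overlap among these lists. In the hypothalamus the microglial sums were 217 to 248 and 224 to 286 CPM and the precursor sums 388 to 437 and 435 to 496. The part of these cell shares in the interaction of single genes was not tested.

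Markers of neighbouring tissue were uneven among the cerebella. Choroid plexus markers summed to 46.1 to 1327 CPM in virgin cerebella (median 66.5) and 53.4 to 3657 in primiparous ones (median 106). Blood markers summed to 41.6 to 61.3 and 45.5 to 151 CPM, meningeal markers to 146 to 209 and 203 to 293, and pituitary markers to 1.98 to 7.52 and 2.6 to 151. Of the choroid plexus markers, 0 of 6 tested passed either edgeR model and 0 had an unadjusted p under 0.05 in the corrected one. Corrected interactions were below 0 in 5 of these 6, 3 of 3 blood, 5 of 5 meningeal and 3 of 3 pituitary markers. The medians were -0.14, -0.29, -0.26 and -1.57. Among blood, meningeal and pituitary markers 0 passed the corrected model (background 3.97%). Uncorrected, 1 blood marker passed, as negative (background 7.34%). The part of these tissues in the interaction of single genes was not tested.

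**Figure D4:**
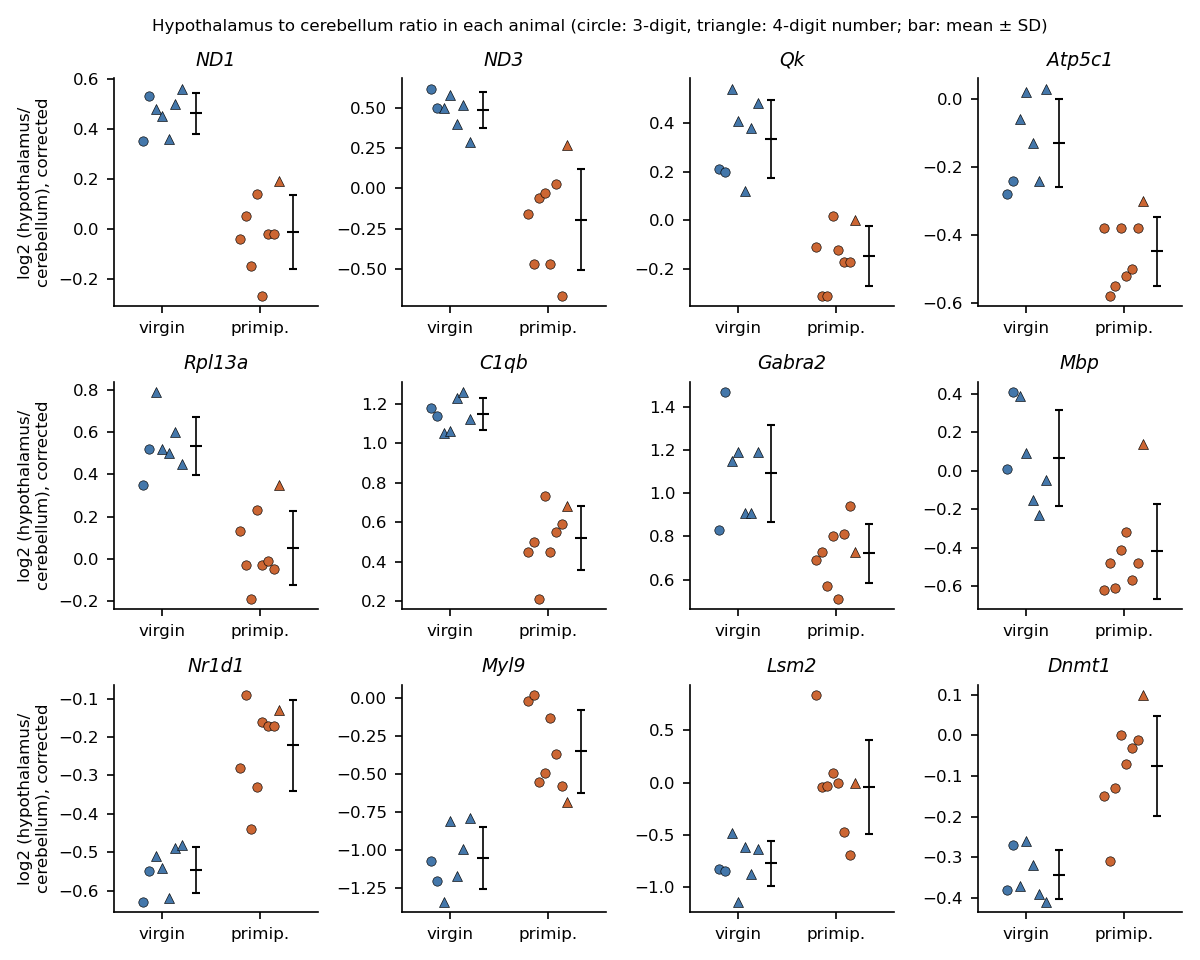
Corrected log2 ratio of hypothalamus to cerebellum in each animal for 12 genes, with the mean ± SD beside each group; circles are 3-digit and triangles 4-digit animal numbers. ND1, ND3, Qk, Atp5c1, Rpl13a, C1qb, Nr1d1 and Myl9 show no overlap between virgin and primiparous animals, and Gabra2, Mbp, Lsm2 and Dnmt1 show some.

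Of the GABA-A receptor subunits, the chloride channels of fast inhibition, 3 of 15 passed the corrected model and all 3 were negative (background 2.25% negative). Gabra2 and Gabra4, which encode alpha subunits, are described here. The list's median was -0.34 uncorrected and -0.12 corrected, with 11 members below 0. Gabra2 had hypothalamic medians of 52.7 and 40.6 CPM and cerebellar levels of 16.4 to 29.3 and 21.5 to 31.7 CPM. Its ratio was 0.83 to 1.47 in virgins and 0.51 to 0.94 in primiparous females, which overlap in part. Its interaction was -0.36 ± 0.10 (edgeR adjusted p = 0.0342), and neither region passed alone after correction. Gabra4 had -0.41 ± 0.11 (edgeR adjusted p = 0.0381). With single animals left out, Gabra2 lost its call in 6 of 15 cases and Gabra4 in 10. For the hypothalamus the study words its GABA-A genes as alpha subunits but prints Gabrg symbols, so genes of both kinds are given. Gabra3, Gabrg1 and Gabrg3 had corrected interactions of -0.12, -0.25 and -0.32 and did not pass (edgeR adjusted p 0.493, 0.113 and 0.738). In the hypothalamus alone, uncorrected, Gabra3 (-0.27) and Gabrg1 (-0.44) passed and Gabrg3 (-0.04) did not (edgeR adjusted p 0.00442, 0.00181 and 0.862). The interaction of Gabrg1 passed uncorrected, at -0.63, and its GC content is 35.3%.

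Of 58 potassium channels 2 passed the corrected model as positive and 1 as negative, of 36 sodium, calcium and HCN channels 1 and 2, and of 7 metabotropic glutamate receptors 0 and 1 (background 1.72% and 2.25%). Those past both models follow. Grm5, the mGluR5 glutamate receptor, had -0.39 ± 0.11 and the background potassium channel Kcnk2 -0.35 ± 0.09. The sodium channel subunit Scn4b had -0.48 ± 0.12 and Cacng2, an auxiliary protein of AMPA receptors, -0.32 ± 0.09. The potassium channel Kcnh1 had 0.26 ± 0.07 and the presynaptic calcium channel Cacna1b 0.27 ± 0.08. Their adjusted p in the corrected edgeR model lay between 0.0349 and 0.0469. With single animals left out, Grm5 and Cacna1b lost their call in 11 of 15 cases each, Cacng2 in 10, Kcnh1 in 9, Kcnk2 in 8 and Scn4b in 7. Scn4b fell in the hypothalamus (-0.35, adjusted p = 0.0394 with edgeR), Cacng2 rose in the cerebellum (0.22, adjusted p = 0.0423) and Kcnh1 fell there (-0.26, adjusted p = 0.0145).

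Among cytosolic ribosomal proteins, Rpl13a and Rpl10a passed both models. Rpl13a (chr7:45125558-45128761), a protein of the large subunit that also takes part in silencing inflammatory mRNAs, changed in the cerebellum. Its cerebellar level was 117 to 148 CPM in virgins (median 124) and 140 to 219 in primiparous females (median 187). In the hypothalamus it was 161 to 206 (median 180) and 163 to 242 CPM (median 188), which overlap widely. The ratios did not overlap, though virgin 405 and primiparous 4493 met at 0.35, and the interaction was -0.48 ± 0.07 (edgeR adjusted p = 0.00102). Rpl10a (chr17:28328471-28331033) instead rose in the hypothalamus, from a median of 82.6 to 111 CPM, while the cerebellum had 78.2 and 84.2. Its interaction was 0.35 ± 0.08 (edgeR adjusted p = 0.0163). Of the 84 ribosomal protein genes 3 passed as positive and 1 as negative, near the background of 3.97%, and the median was 0.04. Both have processed copies in the genome, so reads that map more than once are missing from their counts.

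The splicing factor list changed with the correction. Of 54 splicing factors tested, 5 passed the corrected model, all positive (Hnrnpa1, Hnrnph1, Hnrnpm, Srsf5 and Srsf6), beside a background of 1.72% positive. Of these, Hnrnpm alone passed both models, at 0.25 ± 0.07 (edgeR adjusted p = 0.0358), with hypothalamic medians of 127 and 145 CPM. Its cerebellar medians were 227 and 214 CPM. Without the correction, 3 splicing factors passed as positive and 5 as negative (background 4.19% and 7.34%). The list's median went from -0.05 uncorrected to 0.10 corrected. Lsm2 (chr17:34981862-34985891), part of the ring that holds spliceosomal and decapping RNAs, rose in the hypothalamus by 0.67 ± 0.14 (edgeR adjusted p = 0.00783). Its hypothalamic medians were 5.91 and 9.23 CPM and its cerebellar ones 10.1 and 9.80. The interaction was 0.76 ± 0.19 (edgeR adjusted p = 0.0281).

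Nr1d1 (chr11:98767932-98775333) encodes REV-ERB alpha, a haem-binding repressor in the negative arm of the circadian clock. It was the 1 gene of 21 clock and output genes that passed the corrected model (background 3.97%), while 4 positive and 1 negative passed uncorrected (background 11.5%). Its hypothalamic level was 135 to 165 CPM in virgins (median 141) and 127 to 209 in primiparous females (median 172). Its cerebellar level was 202 to 237 CPM (median 227) and 170 to 213 (median 187). The ratio was -0.63 to -0.48 in virgins and -0.44 to -0.09 in primiparous females, without overlap. The interaction was 0.32 ± 0.06 (edgeR adjusted p = 0.00383). The cerebellum passed alone (-0.24, adjusted p = 0.0108 with edgeR) and the hypothalamus did not (0.09, adjusted p = 0.28), while both passed without the correction (adjusted p 0.0483 and 0.019). Dbp, a clock output gene named by the study for the hypothalamus, had an interaction of 0.16 ± 0.10 and did not pass (adjusted p = 0.393). Its hypothalamic difference passed uncorrected (0.34, edgeR adjusted p = 0.0298) and not corrected (0.15, adjusted p = 0.476).

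The 250 bases before the RefSeq start of Nr1d1 (chr11:98775378-98775627, minus strand) and of Rpl13a (chr7:45128746-45128995, minus strand) are printed from GRCm38.p6, one gene from each direction. Matches on either strand to the E-box CACGTG, the GC box GGGCGG, the CCAAT box or the TATA box TATAAA are in capitals.
Nr1d1: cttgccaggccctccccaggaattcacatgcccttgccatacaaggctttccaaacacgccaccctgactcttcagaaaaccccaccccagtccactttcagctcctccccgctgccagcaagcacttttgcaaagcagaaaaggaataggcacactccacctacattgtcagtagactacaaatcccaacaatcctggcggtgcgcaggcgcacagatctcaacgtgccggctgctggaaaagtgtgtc
Rpl13a: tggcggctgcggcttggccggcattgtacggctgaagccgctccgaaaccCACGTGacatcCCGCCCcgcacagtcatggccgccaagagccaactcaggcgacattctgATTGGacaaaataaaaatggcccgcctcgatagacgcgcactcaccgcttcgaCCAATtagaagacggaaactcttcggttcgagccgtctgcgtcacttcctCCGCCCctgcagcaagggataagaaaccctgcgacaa
The Nr1d1 window held none of these letters. The Rpl13a window held 1 E-box, 2 GC boxes and 2 CCAAT boxes. Of the 128 positive genes 112 had a promoter entry and 8.93% of those held an E-box, of the 195 negative genes 155 did and 11.6% of those held one, and over 10085 tested genes the share was 8.6%. The CCAAT box stood in 39.3%, 38.7% and 36.2%, the GC box in 55.4%, 61.3% and 60.5%, and the TATA box in 6.25%, 2.58% and 6.03%. These shares are descriptions of a short window.

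A few axon guidance genes passed as positive, though 39 of the 66 tested were below 0 and the list's median was -0.04. Uncorrected, 6 passed as positive and 2 as negative (background 4.19% and 7.34%). In the corrected model (background 1.72% positive), the semaphorin receptors Plxnb2 (0.28 ± 0.06) and Plxna1 (0.23 ± 0.06) and the netrin receptor Unc5b (0.28 ± 0.08) passed, with edgeR adjusted p of 0.0198, 0.0362 and 0.0367. In all 3 the cerebellar difference passed alone, at -0.17, -0.18 and -0.17, and the hypothalamic one did not. Without the correction the reverse held: the hypothalamic differences passed (adjusted p 0.00489, 0.00696 and 0.0195 with edgeR) and the cerebellar ones did not (0.106, 0.137 and 0.0862). Dnmt1, the maintenance DNA methyltransferase, was the 1 of 69 histone and DNA modifying enzymes that passed (background 1.72% positive), at 0.27 ± 0.06 (edgeR adjusted p = 0.0214). Its hypothalamic level was 67.1 to 88.7 CPM in virgins and 88.9 to 101 in primiparous females, which do not overlap.

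The largest positive interactions are given among genes past both models with a mean of at least 5 CPM. Ovgp1, an oviductal glycoprotein of the chitinase family, had 0.93 ± 0.26, Igflr1, a receptor of IGF-like proteins, 0.92 ± 0.23 and Ap1g2, an adaptor of vesicle transport, 0.88 ± 0.25. Mirg, a maternally expressed imprinted RNA that hosts microRNAs, had 0.76 ± 0.21, Rgs11, a regulator of G-protein signalling, 0.75 ± 0.22, and Zc3h3, a zinc finger protein of mRNA export, 0.60 ± 0.17. Their edgeR adjusted p lay between 0.0272 and 0.0494 and their ratios overlapped between the states. With single animals left out, Rgs11 lost its call in 12 of 15 cases, Mirg and Zc3h3 in 10 each, Ovgp1 and Ap1g2 in 9 each and Igflr1 in 5. Myl9 (chr2:156775420-156781658), the regulatory light chain of smooth muscle myosin, had the clearest separation of this set. Its ratio was -1.34 to -0.79 in virgins and -0.68 to 0.02 in primiparous females, and its interaction 0.72 ± 0.15 (edgeR adjusted p = 0.0127). Sh3bp1, a regulator of Rac, and Klhl3, a ubiquitin ligase adaptor that targets WNK kinases, also did not overlap (0.64 ± 0.18 and 0.60 ± 0.15). Leaving out single animals ended the call of Sh3bp1 in 11 of 15 cases, of Klhl3 in 3 and of Myl9 in 0. Klhl3 fell in the cerebellum, from a median of 18.2 to 14.4 CPM (-0.42, edgeR adjusted p = 0.0159).

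Under the same limit, the largest negative interactions included genes that are nearly silent in 1 of the tissues. Mdfi, an inhibitor of myogenic transcription factors, had -2.03 ± 0.48 (edgeR adjusted p = 0.0224) on 2 to 15 reads per virgin and 0 to 4 per primiparous hypothalamic library. Npy2r, the Y2 receptor for neuropeptide Y, had -0.98 ± 0.26 (edgeR adjusted p = 0.0384) on 3 to 5 reads per virgin and 4 to 19 per primiparous cerebellar library. Its hypothalamic level was 32.1 to 42.5 CPM in virgins and 27.4 to 40.7 in primiparous females. Tnc, the matrix protein tenascin C (-0.97 ± 0.24), Ppara, the fatty acid receptor PPAR alpha (-0.86 ± 0.24), Opn3, an opsin (-0.71 ± 0.16), and the glycosyltransferase Mgat4c (-0.74 ± 0.21) passed with edgeR adjusted p from 0.0209 to 0.0452. The X-linked zinc finger gene Zxdb fell in the hypothalamus (-0.60, adjusted p = 0.00541 with edgeR) and had an interaction of -0.67 ± 0.17. Ratios of Mdfi did not overlap between states, those of the others did. With single animals left out, Ppara and Mgat4c lost their call in 12 of 15 cases each, Npy2r in 7, Tnc and Zxdb in 4 each and Mdfi and Opn3 in 2 each.

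Members of further lists passed both models as negative. They were Pdia3, a disulphide isomerase of the endoplasmic reticulum (-0.26 ± 0.07), Msmo1 of cholesterol synthesis (-0.31 ± 0.08), Ube2q2, a ubiquitin-conjugating enzyme (-0.28 ± 0.08), and Sgk1, a kinase induced by glucocorticoids (-0.30 ± 0.08). Their edgeR adjusted p lay between 0.0348 and 0.0452. In the corrected model their lists gave 1 of 22, 1 of 20, 2 of 67 and 1 of 15 genes, all negative (background 2.25% negative). With single animals left out, Ube2q2 lost its call in 12 of 15 cases, Pdia3 and Msmo1 in 8 each and Sgk1 in 6. Sgk1 had differences below 0 in both tissues, -0.48 ± 0.20 and -0.12 ± 0.16, and spread widely between animals, from 49.4 to 146 CPM in the hypothalamus. Gria2, an AMPA receptor subunit, and Rims1, a scaffold of synaptic release sites, passed as positive in the corrected model alone. They were 1 of 15 and 1 of 32 genes of their lists (background 1.72% positive). In that edgeR model 0 of 35 proteasome subunits, 0 of 17 glycolytic enzymes, 0 of 16 heat shock proteins, 0 of 30 cadherins and 0 of 21 immediate early genes passed, with 5, 1, 5, 3 and 4 at an unadjusted p under 0.05. The uncorrected edgeR model called 1, 3, 2, 2 and 1 of them. The background was 3.97% in the corrected model and 11.5% in the uncorrected one.

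Neuropeptides and hormone receptors are the genes most tied to hypothalamic function. Few of them were called, and their share was not tested against that over all genes. Of 25 neuropeptide genes, 0 passed the corrected edgeR model and 1 the uncorrected one (background 3.97% and 11.5%). In the corrected model 2 had an unadjusted p under 0.05, and the median was 0.12. Gal, galanin, had 0.65 ± 0.33 and Npy, neuropeptide Y, 0.34 ± 0.19 (adjusted p 0.273 and 0.342). Of 42 neuropeptide and hormone receptors, Npy2r alone passed the corrected model (background 2.25% negative), and 1 positive and 2 negative passed uncorrected (background 4.19% and 7.34%). Prlr, the prolactin receptor, had 0.45 ± 1.13 and Htr2c, a serotonin receptor, -0.12 ± 0.51. Their cerebellar levels ran from 0.475 to 41.7 CPM and from 2.78 to 27.1 CPM among primiparous females, so these intervals are wide. Preb, a regulator of prolactin transcription, had 0.14 ± 0.07 and the dopamine transporter Slc6a3 -1.50 ± 0.81, with cerebellar levels of at most 0.381 CPM (adjusted p 0.251 and 0.317). With single animals left out, Slc6a3 ran from -2.2 to -0.927 (lowest edgeR adjusted p = 0.0324) and Npy from 0.185 to 0.417. The study named Gal, Npy, Prlr, Htr2c, Preb and Slc6a3 for a difference in the hypothalamus, not for this interaction. In the hypothalamus alone, uncorrected, Gal (0.36), Npy (0.53), Preb (0.20), Prlr (-0.27) and Htr2c (-0.26) passed (edgeR adjusted p 0.0106 to 0.0168). Slc6a3 did not (-0.81, adjusted p = 0.333). After the correction all lay above the threshold there (edgeR adjusted p 0.127 to 0.836).

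Non-overlap of the animals' ratios was rare. Over all 12632 genes the virgin and primiparous ratios did not overlap in 76 (0.602%), 37 with higher and 39 with lower primiparous values. Of the 128 positive genes 14 and of the 195 negative genes 30 were among them. The interaction that chose these genes compares the same ratios, so their share is a description.

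The calls did not hold when the series of animal numbers was taken into account, though the signs mostly did. With the series as a term beside the animal block, 0 genes passed the corrected edgeR model and 1 the uncorrected one, while 1157 and 1388 genes had an unadjusted p under 0.05. All 323 genes kept their sign, at a median of 79.5% of their size, and 277 had an unadjusted p under 0.05. Zxdb went from -0.67 to -0.35 with this term, Cacng2 from -0.32 to -0.16, Ube2q2 from -0.28 to -0.14 and Ovgp1 from 0.93 to 0.55. Opn3 and Ppara instead grew in size, from -0.705 to -0.845 and from -0.856 to -1.06. The smallest adjusted p was 0.0878, shared by ND1, ND4, COX1 and Nr1d1, with interactions of -0.41, -0.45, -0.52 and 0.37. Among the 3-digit animals alone (2 virgin, 7 primiparous) the difference of mean ratios kept its sign in 128 of 128 positive and 194 of 195 negative genes, with medians of 0.30 and -0.28. Among the 4-digit animals (5 virgin, 1 primiparous) it did so in 125 and 184 genes, with medians of 0.29 and -0.25. ATP6, Mbp, S100b and Scn4b were among the genes that did not, at 0.28, 0.13, 0.08 and 0.15. The same animals chose the genes, so the signs and unadjusted p with the series term, like these splits, are a description. On a scale from the mean of the 4-digit virgins at 0 to that of the 3-digit primiparous females at 1, the median gene lay at 0.34 for virgin 405, 0.16 for virgin 409 and 0.66 for primiparous 4493. Number series and state cannot be told apart for the part they share.

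**Figure D5:**
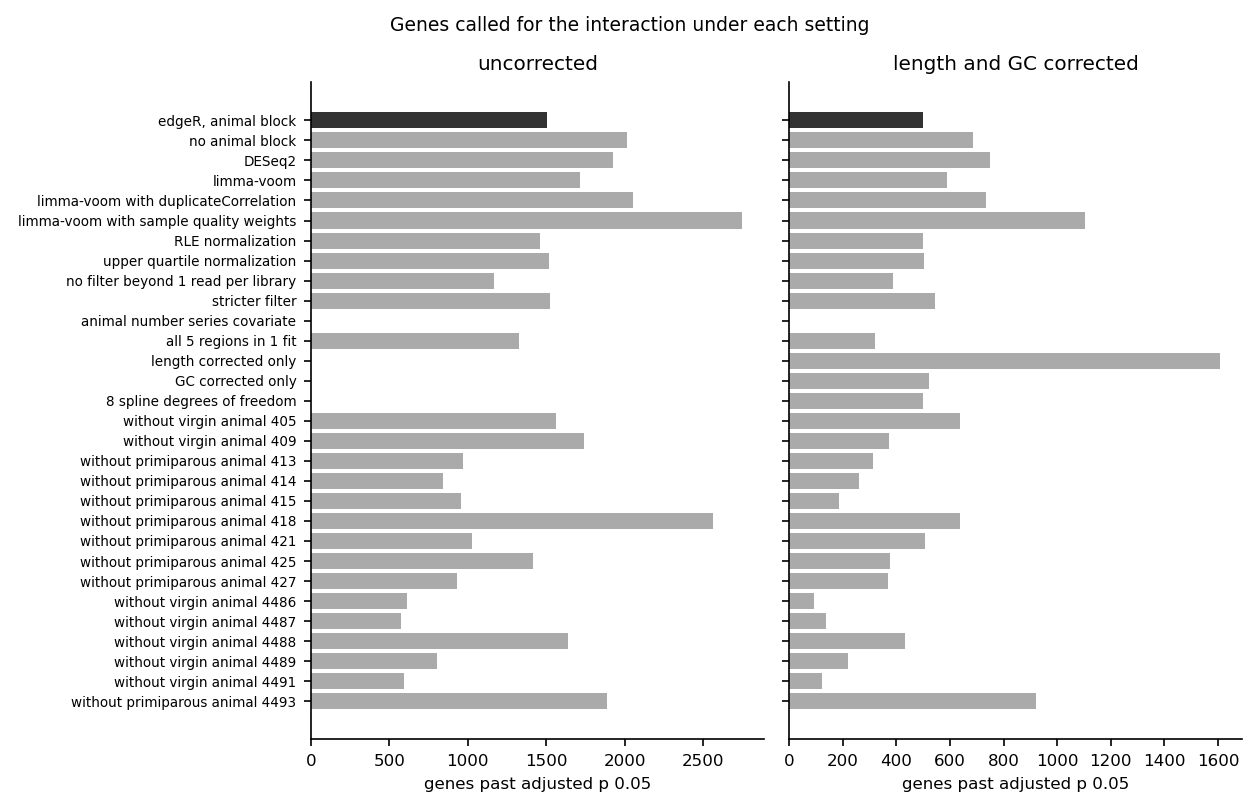
Number of genes past an adjusted p of 0.05 for the interaction in each model, without (left) and with (right) the correction; the models that correct in another way appear only on the right. The dark bars are the 1502 and 501 genes of the animal-block edgeR model, and single animals left out move the corrected count between 93 and 920.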

How the data were processed

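Whole hypothalamus and left cerebellum of the mice were profiled by RNA-seq. Polyadenylated RNA was selected, and the authors prepared NEBNext Ultra libraries, aligned reads with HISAT2 to mm10 and counted reads mapping once with featureCounts. The deposited counts are whole reads per Entrez gene without normalization (27179 genes, 77 libraries). Strand handling is not given in the sources used here. A second deposited table of transformed values was not used.

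Genes with at least 5 CPM in 8 of the 77 libraries (13016) were fitted with edgeR 4.0.16 in R 4.3.3 (TMM, robust quasi-likelihood test, Benjamini-Hochberg adjustment over all genes tested). The model held animal, region and the interaction of region and state; the pairing comes from the animal number in the labels. Deviations from the group means correlated between the 2 regions of an animal with a median of 0.0234 (15 pairs, corrected values), beside -0.000908 between animals. The correction fitted, in each library, a natural spline with 4 degrees of freedom in log2 exonic length and another in GC content (GENCODE M21) and used it as an offset; 384 genes had no such values. Region differences used one model per region. SE is the log2 value over the root of F. The scripts were tested on simulated data.

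Ratios of regions per animal are differences of log2 CPM (prior count 2), corrected where stated. Precision is limited by counting error and by n; p-values measure the spread between animals. Named genes are those past both models with a mean of at least 5 CPM: the 10 largest, the 10 smallest, the 5 with the smallest p, up to 3 from each of 24 functional lists, and genes the study names. The 13 mitochondrially encoded genes and glial markers that passed were added after their values were seen. Some genes that this rule takes are not reported here. Members and lists were chosen with earlier results of these data known. Alternatives comprised limma 3.58.1, DESeq2 1.42.0, other normalizations and filters, no block, a series term and leaving out each animal.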

Additional observations from a re-analysis of the deposited data

Results flagged for a closer look

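In 152 groups of values checked, 17 values, several from the same animal, stood far from the rest of their group, where chance gives about 1 in 20 groups, or 7.6. Primiparous 414 had the highest corrected log2 ratio of hypothalamus to cerebellum for Sh3bp1 (1.37) and an apart one for Igflr1 (0.42). Primiparous 413 stood apart for Klhl3 (-0.25) and Tnc (-3.19), and virgin 4486 for Klhl3 (-1.83). Virgin 409 stood apart for the mitochondrial genes ND4L (0.82), ATP6 (1.05), COX2 (0.87) and COX3 (0.91), for the microglial gene Cx3cr1 (1.78) and for the hypothalamic share of mitochondrially encoded reads (3.86%). Primiparous 4493 stood apart for ATP6 (0.55) and Mbp (0.14). Primiparous 421 stood apart for Plxnb2 (-0.67), Htr2c (2.0) and Prlr (0.21) and virgin 4488 for Olig1 (1.18).

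The parity difference was unlike in the 2 tissues, by the test of the interaction itself, in 1502 genes and, after correction, in 501. With the series of animal numbers as a term 1 and 0 edgeR calls remained (1388 and 1157 genes at an unadjusted p under 0.05), and without virgin 4486 there were 93 corrected calls. The corrected interactions of the named genes that passed are listed by group. Mitochondrially encoded genes were ND4L (-0.705), ATP6 (-0.693), ND3 (-0.682), COX1 (-0.56), ND2 (-0.496), ND4 (-0.494), ND1 (-0.477), ND5 (-0.451) and CYTB (-0.411). Nuclear genes of mitochondria were Mrpl54 (-0.473), Ndufb4 (-0.395), Atp5c1 (-0.318) and Ndufa5 (-0.289). Genes of glia were C1qb (-0.638), Mbp (-0.485), Qk (-0.481), C1qa (-0.401), Cx3cr1 (-0.368), S100b (-0.305), Slc1a2 (-0.277) and Olig1 (-0.274).

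Receptors and channels were Npy2r (-0.98), Scn4b (-0.482), Gabra4 (-0.411), Grm5 (-0.392), Gabra2 (-0.363), Kcnk2 (-0.345), Cacng2 (-0.321), Kcnh1 (0.264) and Cacna1b (0.27). Other negative genes were Mdfi (-2.03), Tnc (-0.974), Ppara (-0.856), Mgat4c (-0.739), Opn3 (-0.705), Zxdb (-0.667), Rpl13a (-0.483), Msmo1 (-0.312), Sgk1 (-0.304), Ube2q2 (-0.278) and Pdia3 (-0.264). Other positive genes were Ovgp1 (0.926), Igflr1 (0.917), Ap1g2 (0.881), Mirg (0.757), Lsm2 (0.756), Rgs11 (0.75), Myl9 (0.719), Sh3bp1 (0.636), Zc3h3 (0.603), Klhl3 (0.595), Rpl10a (0.349), Nr1d1 (0.324), Unc5b (0.284), Plxnb2 (0.278), Dnmt1 (0.268), Hnrnpm (0.249) and Plxna1 (0.225).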

How the results depend on the processing

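Counts below are genes at an adjusted p of 0.05, uncorrected and then corrected. Without the replicate block, 2015 and 687 genes passed, and 1438 and 447 of them were shared with the paired models. Sample quality weights in limma-voom gave 2750 and 1103, and the series term gave 1 and 0. A correction for length alone gave 1609, for GC content alone 522, and splines with 8 degrees of freedom 499. All 5 regions in 1 model gave 322 corrected calls. Single animals set much of the count: it ran from 576 (without virgin 4487) to 2566 (without primiparous 418) uncorrected, and from 93 (without virgin 4486) to 920 (without primiparous 4493) corrected. The corrected count was also moved by over 1.5 times without virgins 4487 (139), 4491 (124) and 4489 (218) and primiparous 413 (312), 414 (261) and 415 (187). The uncorrected one was so moved without virgins 4486 (612), 4491 (593) and 4489 (805) and primiparous 413 (969), 414 (844), 415 (959) and 427 (931). In single regions, 2939 hypothalamic and 92 cerebellar genes passed without correction. With the correction, limma-voom gave 222 hypothalamic genes beside 360 with edgeR. The length slope ranged from 0.04 to 0.0648 with single animals left out and lost its call in 6 of 15 cases, with an exact permutation p of up to 0.0673. The GC slope kept its call in all 15.

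The 58 named genes that passed had 1740 values under 30 alternatives each. Of these, 1268 stayed past the threshold, 472 did not and 0 changed sign. The genes were chosen from the same animals, so the kept signs are a description. Prlr and Htr2c, which did not pass, changed sign: Prlr had -0.485 without the replicate block, -0.579 with quality weights and from -0.0509 to 1.56 with single animals left out. Htr2c had 0.065 with the series term and from -0.412 to 0.264 with single animals left out. The values within each number series, for genes and slopes, were chosen after seeing the data and have no test. Within the 4-digit animals ATP6 had 0.278, Scn4b 0.154, Mbp 0.129 and S100b 0.0812. The cause of these shifts was not tested. Depth limits genes with few reads in 1 tissue, such as Mdfi and Npy2r.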
